A study of Mus musculus with 6 samples.

Results

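Lactotropes are the prolactin-secreting cells of the anterior pituitary, and their transcript profile was described from the 3 libraries labelled lactotrope, of 6 libraries in all. The other 3 libraries, labelled somatotrope, hold the growth hormone-secreting cells of the same gland and are used only for comparison. Every library came from pituitary cells of female mice of a CD1 x C57BL/6 hybrid strain at 6 to 8 weeks of age, separated by fluorescence-activated cell sorting, and the labels name no treatment or engineered allele in either group. The labels call the 3 libraries of each cell type biological replicates. The sort gate and the number of animals behind a replicate are not given in the sources used here. Levels are FPKM (fragments per kilobase of transcript, relative to all mapped fragments), with 1 row per gene symbol, which gave 22869 genes. Where 3 values follow each other they belong to lactotropes 1, 2 and 3 in that order, and genome positions are those of the deposited table (mouse build mm9) unless another build is named.

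Lactotropes differ from most endocrine cells in that they release their hormone unless they are held back. Dopamine from the hypothalamus acts on the D2 receptor, lowers cyclic AMP and so inhibits both the release of prolactin and the transcription of its gene, while oestrogen, thyrotropin-releasing hormone, vasoactive intestinal peptide and several growth factors act in the other direction. The cell descends from a lineage defined by the transcription factor Pit-1, encoded by Pou1f1, which also gives rise to somatotropes and thyrotropes and which binds the promoters of the prolactin and growth hormone genes. Prolactin is made at the rough endoplasmic reticulum and stored in dense granules with granins.

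The promoter sequences of 3 genes are shown because Prl was the most abundant endocrine transcript, Pou1f1 encodes the factor known to bind its promoter, and Crhbp had the highest median over the 3 libraries among genes of local peptides and their binding proteins. Each is the 250 bases before the annotated start of the gene, 5′ to 3′ on the gene's own strand, from RefSeq on GRCm38.p6, a build other than that of the data table. Capitals mark TATNCAT, a short form of the Pit-1 site, found on either strand, so that matches to the reverse strand read ATGNATA.
Prl, chr13:27057320-27057569, plus strand: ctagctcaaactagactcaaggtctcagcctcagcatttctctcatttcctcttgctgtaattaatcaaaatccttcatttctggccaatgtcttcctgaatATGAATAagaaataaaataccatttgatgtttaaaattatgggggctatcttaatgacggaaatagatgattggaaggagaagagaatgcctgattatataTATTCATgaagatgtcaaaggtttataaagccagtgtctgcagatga
Pou1f1, chr16:65520262-65520511, plus strand: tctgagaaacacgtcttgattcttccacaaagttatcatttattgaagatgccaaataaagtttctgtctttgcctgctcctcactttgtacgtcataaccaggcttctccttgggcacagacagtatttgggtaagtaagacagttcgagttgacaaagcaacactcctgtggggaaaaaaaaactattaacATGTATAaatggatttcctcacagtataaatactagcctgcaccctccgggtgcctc
Crhbp, chr13:95444832-95445081, minus strand: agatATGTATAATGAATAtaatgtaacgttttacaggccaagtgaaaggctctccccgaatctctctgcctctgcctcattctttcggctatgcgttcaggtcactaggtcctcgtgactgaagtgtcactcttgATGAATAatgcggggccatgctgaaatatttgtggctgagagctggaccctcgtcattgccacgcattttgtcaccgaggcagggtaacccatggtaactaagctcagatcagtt
The Prl window held 2 matches, whose first bases lie 148 and 47 bases before the start. The Pou1f1 window held 1 match, 57 bases before the start, and the Crhbp window held 3, at 246, 239 and 115 bases, the first 2 of which stand end to end. No match was found in the windows of Drd2, Akr1c14, Pomc, Chgb or Gal, nor in that of a second annotated start of Pou1f1. Among all 32851 promoter windows of this length, 2603 (7.92%) held at least 1 match and 415 (1.26%) held 2 or more, so a match is a description of these letters and not of binding.

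The 3 lactotrope libraries differed in breadth and stood apart from one another. Values above 0 were listed for 16454, 15969 and 11318 genes, and levels of at least 1 FPKM for 12065, 10430 and 8082 genes. Of the 11642 genes whose mean over the 6 libraries was 1 FPKM or more, lactotrope 3 listed 14.9% at 0, against 0.232% and 0.481% in lactotropes 1 and 2, so a 0 in lactotrope 3 is given below as listed and counts are also given for at least 2 of the 3 libraries. Across those genes, which are not independent replicates, Pearson's correlation of log2(FPKM + 1) was 0.673 for lactotropes 1 and 2, 0.696 for lactotropes 1 and 3 and 0.797 for lactotropes 2 and 3. Lactotrope 1 was closer to somatotrope 1, at 0.930, than to either other lactotrope library. Lactotrope 2 was likewise closer to somatotropes 2 and 3, at 0.894 and 0.848, than to either other lactotrope library. Lactotrope 3 was closest to lactotrope 2, with somatotrope 3 next at 0.782. The table gives no read totals. In lactotrope 1 the steps between 28 low values of short chemosensory receptor and keratin-associated protein genes, all within 0.1 of a whole fragment, correspond to a depth of 17.6 (in units of 1e6 fragments). Lactotrope 2 had 9 such values, of which 8 were within 0.1 of a whole fragment at a depth of 70.3 in these units. That depth rests on few values and is uncertain. Lactotrope 3 had 0 such values and so no depth. Dividing each library by its median ratio to the geometric mean of all 6 libraries (factors of 1.69, 0.797 and 0.601 for lactotropes 1 to 3) changed which lactotrope library was highest for many genes. Of 3326 genes averaging 10 FPKM or more, 1611 (48.4%) had the same highest library on both scales. Values below are as deposited, and a library is called highest or lowest for a gene where that holds on both scales, unless one scale is named. In such bulk samples, fewer cells of a type and less RNA per cell cannot be told apart.

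The 4 lactotrope markers Prl, Drd2, Angpt1 and Akr1c14 were listed at 1 FPKM or more in all 3 libraries. In every somatotrope library 3 of them also passed that level. They belong to a wider list of 12 lactotrope markers, of which 8 (66.7%) reached that level in all 3 lactotrope libraries. Over all genes that share was 31.4%. Of the 12, 2 were listed at 0 in all 3, beside 5549 of all 22869 genes. Drd2 is also on the list of corticotrope and melanotrope markers. The ratio of Prl to Gh separated the labels, at 49.4, 3.67 and 19.5 in lactotropes and 0.123, 0.449 and 0.564 in somatotropes. Prl was the highest gene in lactotropes 1 and 3 and the second highest in lactotrope 2. The gene (chr13:27149439-27157072, plus strand) stood at 195325 FPKM in lactotrope 1, 25171 FPKM in lactotrope 2 and 148913 FPKM in lactotrope 3. Lactotrope 2 was the low library, 7.76-fold under lactotrope 1 as deposited. Prl had a second transcript row of nearly the same values. With 1 row per gene, Prl made up 46.6%, 12.1% and 53.0% of the FPKM sum. With both rows counted, it made up 56.6%, 17.7% and 64.1% of the FPKM summed over all rows. Whether the 2 rows count the same reads was not tested. By either count 1 hormone's transcript was a large part of the lactotrope 1 and 3 totals and a smaller part of the lactotrope 2 total. Because FPKM is scaled to the library, a transcript of this size takes a part of the total that the other genes share. The FPKM sums with 1 row per gene were themselves unequal, at 418770, 207844 and 281178. How far Prl set the level of other genes in each library was not tested.

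The 100 highest genes of each library had 33 genes in common, of which 24 were also among the 100 highest of all 3 somatotrope libraries. Without lactotrope 1 the shared count was 64, without lactotrope 2 it was 50 and without lactotrope 3 it was 37. Gh (chr11:106161582-106163124, minus strand), which encodes growth hormone, ranked 2, 4 and 3 at 3954, 6856 and 7623 FPKM, highest in lactotrope 3. Fth1, the ferritin heavy chain that stores iron, ranked 12, 14 and 12 at 888, 918 and 879 FPKM, nearly level as deposited. Cst3, a secreted inhibitor of cysteine proteases, ranked 20, 9 and 8 at 691, 1394 and 1451 FPKM, lowest in lactotrope 1. Itm2b, a membrane protein cleaved in the secretory pathway, ranked 3, 17 and 11 at 2145, 776 and 999 FPKM.

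The other genes of the first 25 had varied roles. Gnas, the stimulatory G protein subunit that couples receptors to cyclic AMP production, had 630.1, 533 and 523 FPKM, close together as deposited. The endoplasmic reticulum chaperone Hspa5 had 853, 224 and 236 FPKM and the disulfide isomerase Pdia3 had 852, 157 and 181 FPKM, both highest in lactotrope 1. Calm2, which encodes the calcium sensor calmodulin, stood at 293, 171 and 228 FPKM and the polyubiquitin gene Ubb at 573, 334 and 555 FPKM. Nnat, an imprinted gene of a small endoplasmic reticulum membrane protein, had 1573, 338 and 322 FPKM and the secreted antioxidant enzyme Gpx3 had 1103, 139 and 310.0 FPKM, again highest in lactotrope 1. In the other direction, the MHC class II chain Cd74 had 581, 9644 and 3085 FPKM and the lipid carrier Apoe had 328, 6030.3 and 2040.1 FPKM, lowest in lactotrope 1 and highest in lactotrope 2.

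Of the 33 shared genes, 4 had rows under 200 bases long, and all 4 are microRNA hairpins whose row used here overlaps a longer gene. Mir5107, the highest gene of lactotrope 2, lies within Cd74 and had 1732, 28170.0 and 8889 FPKM, the same order of libraries as its host. Mir1906-1 and Mir1906-2 carry the same values in rows at 1 shared position within the imprinted noncoding gene Meg3 (chr12:110779206-110806810), both have a second, much lower row on chromosome X, and Mir3064 lies within Ddx5. FPKM divides by length, so a fragment of the host transcript counted on so short a row is worth a large value, and the reads of host and hairpin cannot be told apart here.

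**Figure D1:**
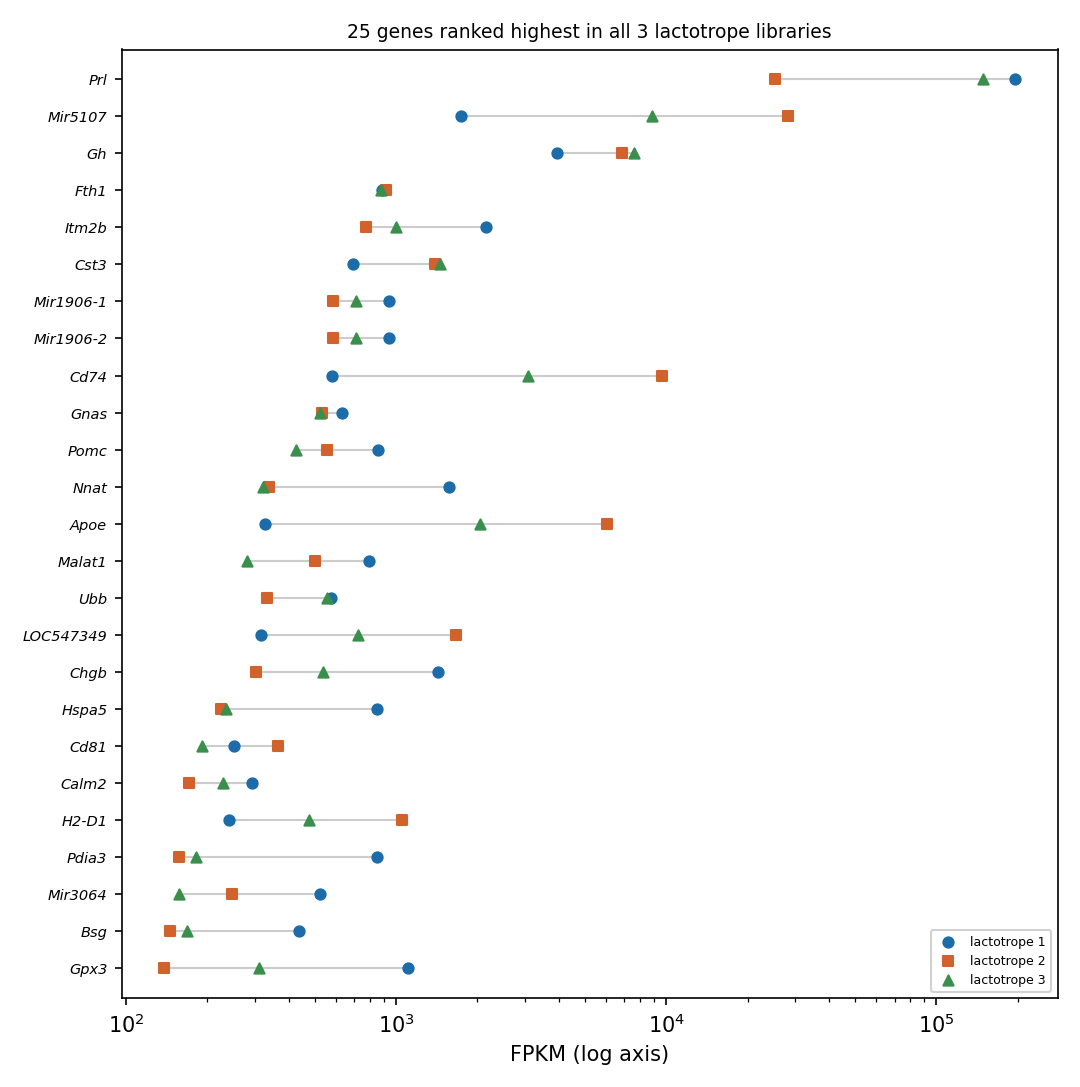
FPKM on a log axis of the 25 genes with the best rank in all 3 lactotrope libraries, 1 symbol per library, with a grey line from the lowest to the highest value. Prl lies above the other genes in lactotropes 1 and 3, Fth1 and Gnas have nearly overlapping symbols, and Cd74, Apoe and Mir5107 run from lactotrope 1 as the lowest to lactotrope 2 as the highest.

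Transcripts of all 7 pituitary hormone genes examined were listed above 1 FPKM in every lactotrope library. Pomc (chr12:3954951-3960618), the precursor of corticotropin and melanocyte-stimulating hormone, had 853, 553 and 425 FPKM, a 2.01-fold range that was narrower than that of Prl. Cga, the common alpha subunit of the glycoprotein hormones, had 739, 126 and 285 FPKM, and Tshb, the beta subunit of thyrotropin, had 83.6, 6.11 and 18.5 FPKM, both lowest in lactotrope 2. The gonadotropin beta subunits were low. Lhb had 2.90, 5.91 and 15.8 FPKM, highest in lactotrope 3, and Fshb had 4.91, 1.42 and 2.90 FPKM. The ranges of the somatotrope libraries for Pomc, Cga, Tshb, Lhb and Fshb overlapped with these values.

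Over all 22869 genes, 31.4% had at least 1 FPKM in all 3 lactotrope libraries and 45.5% had it in at least 2. Of the same genes, 11087 were listed above 0 in all 3 libraries and 5549 were listed at 0 in all 3. The counts given for each gene list are to be read beside these numbers. Of 33 genes for peptides made in the pituitary and their binding proteins, 4 (12.1%) had at least 1 FPKM in all 3 libraries, 11 (33.3%) had it in at least 2, and 11 were listed at 0 in all 3. Crhbp (chr13:96201331-96214786, minus strand), which encodes a secreted protein that binds corticotropin-releasing hormone and urocortin, had 232, 20.3 and 204 FPKM, low in lactotrope 2 and high in lactotropes 1 and 3. Gal, the precursor of galanin, a peptide that stimulates lactotropes and is induced by oestrogen, ranked 6 in lactotrope 1 at 1463 FPKM but 185 and 245 in lactotropes 2 and 3, at 75.4 and 66.4 FPKM. Nucb2, the precursor of nesfatin, had 148, 23.1 and 63.1 FPKM, again with lactotrope 2 lowest. Penk, the enkephalin precursor, had 4.22, 2.05 and 1.58 FPKM and Vip, for vasoactive intestinal peptide, had 8.76 and 1.13 FPKM and a listed 0, so Vip was not listed in every library. Oxt and Avp, hormones of hypothalamic neurons whose axons end in the posterior lobe, had a listed 0, 17.1 and 5.94 FPKM and 0.112, 16.7 and 5.67 FPKM respectively, with lactotrope 2 highest for both.

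Granule proteins were listed throughout. All but 1 of 14 granin and prohormone-processing genes were listed above 0 in every library, and 12 had at least 1 FPKM in all 3. Chgb, secretogranin I, ranked 7, 43 and 20 at 1426, 302 and 537 FPKM. Scg5, the chaperone of the convertase PC2, had 810.2, 138 and 295 FPKM and Scg2, secretogranin II, had 400.5, 70.6 and 199 FPKM. These 3 genes were lowest in lactotrope 2. The granule protein Resp18 had 188, 47.2 and 163 FPKM, Scg3 had 114, 15.5 and 38.4 FPKM and Chga had 89.3, 18.96 and 27.99 FPKM, lowest in that same library. Cpe, the carboxypeptidase that trims processed hormones, had 424, 112 and 119 FPKM, with lactotropes 2 and 3 nearly level as deposited. The convertases themselves were lower: Pcsk1 had 43.5, 2.45 and 3.68 FPKM and Pcsk2 had 1.73, 0.331 and 1.66 FPKM, while Pcsk1n, the inhibitor of the former, had 37.8, 18.8 and 72.2 FPKM and was highest in lactotrope 3.

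Growth factors and cytokines had a median of 1.16 FPKM over 41 genes, beside 0.631 FPKM over all genes (each gene taken at its median over the 3 libraries). Dlk1, a membrane-bound Notch-like ligand from an imprinted locus, had 84.1, 39.4 and 74.3 FPKM and Mif, a cytokine stored in pituitary granules, had 48.8, 29.2 and 68.5 FPKM. Angptl7, a relative of the angiopoietins, had 13.0, 8.61 and 2.83 FPKM, lowest in lactotrope 3. Angpt1 (chr15:42256271-42508341, minus strand), the ligand of the vascular receptor Tie2, had 27.7, 4.87 and 3.34 FPKM, so lactotrope 1 held most of its signal. Mdk, the heparin-binding factor midkine, had 3.79, 40.4 and 20.1 FPKM, lowest in lactotrope 1, and the vascular growth factors Vegfb and Vegfa had 6.34, 5.80 and 3.01 FPKM and 5.57, 1.71 and 2.23 FPKM. In all, 16 of the 41 genes had at least 1 FPKM in all 3 libraries and 21 had it in at least 2.

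**Figure D2:**
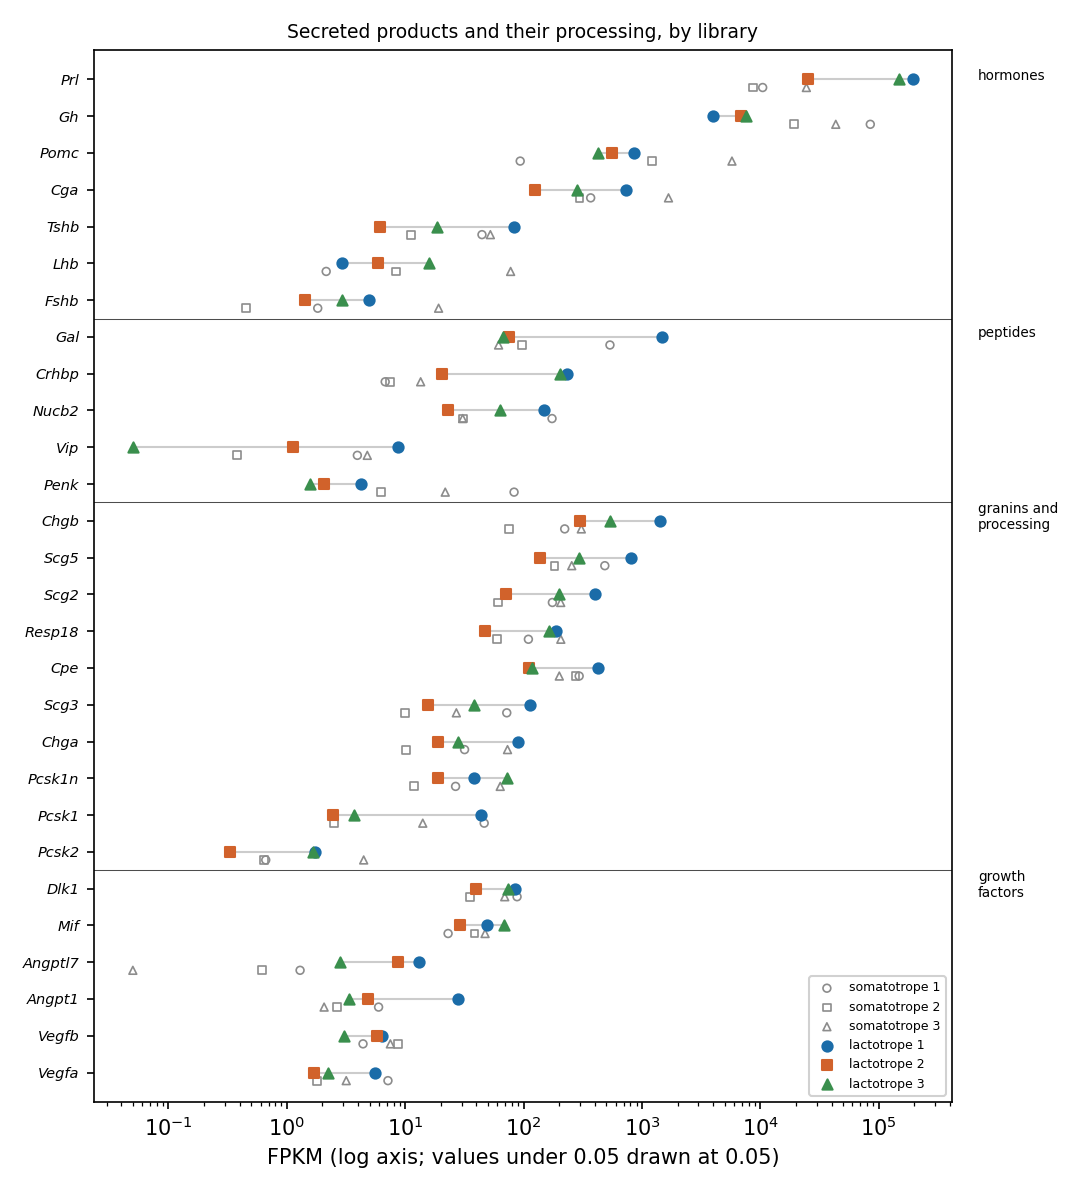
FPKM on a log axis of secreted products and their processing enzymes, grouped by role, with filled symbols for the 3 lactotrope libraries, open grey symbols for the 3 somatotrope libraries and a line over the lactotrope range, and values under 0.05 FPKM drawn at 0.05. Prl, Crhbp and Angptl7 have lactotrope symbols wholly to the right of the somatotrope symbols, Gh and Penk wholly to the left, and most granule genes overlap.

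The machinery that moves proteins into and through the secretory pathway was listed throughout. All 24 chaperone and folding genes of the endoplasmic reticulum had at least 1 FPKM in all 3 libraries, with a median over genes of 37.5 FPKM, and so did 33 of 35 genes of translocation and vesicle coats, with a median of 27.8 FPKM. Herpud1, a component of the degradation machinery of the endoplasmic reticulum, had 69.6, 67.2 and 68.4 FPKM and Calr, the calcium-binding chaperone calreticulin, had 69.8, 86.0 and 80.2 FPKM, close together as deposited in both cases. Hsp90b1, Pdia6 and P4hb had their highest deposited values in lactotrope 1, at 291, 211 and 330.1 FPKM, and lay between 64.2 and 109 FPKM in the other libraries. Ssr4, a subunit of the translocon-associated complex, had 325, 68.6 and 141 FPKM, and Sec61b, of the translocation channel, had 184, 40.4 and 117 FPKM. Of 32 genes of the fusion machinery, 19 had at least 1 FPKM in all 3 libraries and 22 in at least 2. Vamp8 had 61.7, 76.8 and 77.6 FPKM, whereas Snap25, the partner SNARE at the plasma membrane, had 137, 13.7 and 25.6 FPKM and was highest in lactotrope 1 and lowest in lactotrope 2.

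Receptors were grouped by the input they receive. Among 12 genes for inhibitory inputs, 3 (25%) had at least 1 FPKM in all 3 libraries, which were Drd2 and the transforming growth factor beta receptors Tgfbr1 and Tgfbr2, and 6 (50.0%) had it in at least 2, close to the shares over all genes. Drd2 (chr9:49148767-49215319, plus strand), the dopamine receptor, had 11.9, 2.51 and 3.29 FPKM and ranked 4218, 7449 and 4959 of 22869 genes. Of these genes, 16454, 15969 and 11318 were above 0 in the 3 libraries. Tgfbr1 had 16.6, 27.2 and 5.48 FPKM and Tgfbr2 had 7.15, 18.6 and 2.49 FPKM, both highest in lactotrope 2. The endothelin receptor Ednra had 3.13, 0.961 and 1.84 FPKM and the GABA-B subunit Gabbr1 had 3.87, 0.753 and 1.37 FPKM. Among the somatostatin receptors, Sstr1 had 3.69, 0.265 and 0.368 FPKM, and Sstr2 was listed only in lactotrope 1, at 0.381 FPKM. Drd4 was listed at 0 in all 6 libraries.

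Of 21 genes for stimulatory inputs only Esr1, the oestrogen receptor alpha, had at least 1 FPKM in all 3 lactotrope libraries (4.76% of the list), and 4 (19.05%) had it in at least 2. Esr1 (chr10:5342780-5734495, minus strand) had 34.3, 1.19 and 2.03 FPKM, 28.9-fold higher as deposited in lactotrope 1 than in lactotrope 2. Agtr1a, an angiotensin receptor, had 6.88 and 0.874 FPKM and a listed 0, and Egfr, the receptor of epidermal growth factor, had 3.75 and 3.49 FPKM and a listed 0. The thyrotropin-releasing hormone receptor Trhr and the oxytocin receptor Oxtr were listed only in lactotrope 1, at 2.01 and 4.62 FPKM, and Agtr1b was listed at 0 in all 3. Vipr1 and Vipr2, for vasoactive intestinal peptide, reached at most 0.294 and 0.234 FPKM. None of the 5 receptors used as marks of other pituitary cells was listed above 0 in every library, whereas 11087 of all 22869 genes were. Lactotrope 3 listed all 5 at 0, and lactotrope 1 listed none of the 5 at 0. Ghrhr, which receives the hypothalamic signal for growth hormone, had 9.05 and 2.88 FPKM and a listed 0, and the corticotropin-releasing hormone receptor Crhr1 had 6.33 and 0.658 FPKM and a listed 0. The prolactin receptor Prlr, through which the hormone can act on the cell that makes it, had 7.14, 0.389 and 0.118 FPKM, lowest in lactotrope 3. Downstream of it, Stat5b had 20.2, 3.83 and 0.933 FPKM, highest in lactotrope 1, and the feedback inhibitor Socs3 had 7.31, 23.7 and 51.7 FPKM, highest in lactotrope 3. Stat3 had 27.7, 14.2 and 9.65 FPKM as deposited and was level after median-ratio scaling, at 16.3, 17.9 and 16.05 scaled FPKM.

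Intracellular signalling was led by G protein and kinase subunits. Behind Gnas stood Gnb1 at 109, 58.2 and 31.9 FPKM, the inhibitory subunit Gnai2, of the class through which the D2 receptor acts, at 58.1, 73.3 and 42.0 FPKM, and Prkar1a, the regulatory subunit of protein kinase A, at 186, 43.7 and 53.2 FPKM. Of 30 potassium and HCN channel genes 1 (3.33%) had at least 1 FPKM in all 3 libraries and 4 (13.3%) had it in at least 2, and of 33 genes of calcium and sodium channels, pumps and store-operated entry 5 (15.2%) and 10 (30.3%) did. Kcnk1, a background potassium channel, had the highest median of the first list at 13.7, 17.5 and 1.73 FPKM, and Atp2a2, the calcium pump of the endoplasmic reticulum, of the second at 34.7, 13.5 and 4.16 FPKM. Lactotrope 3 was the lowest library for both, and it listed 20 of the 30 potassium and HCN channel genes at 0 where lactotrope 1 listed none. Over all 22869 genes, lactotrope 3 listed 11551 at 0 and lactotrope 1 listed 6415 at 0.

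Of 44 transcription factor genes of the pituitary, 22 (50.0%) had at least 1 FPKM in all 3 libraries and 30 (68.2%) had it in at least 2. Pou1f1 (chr16:65520964-65534316, plus strand) was the most abundant by median and had 258, 34.6 and 66.7 FPKM, lowest in lactotrope 2, as was Prl. Xbp1, the factor that expands the endoplasmic reticulum in secretory cells, had 248, 64.7 and 58.9 FPKM. The homeodomain factor Lhx3, which acts early in pituitary development, had 27.2, 25.7 and 14.6 FPKM and spanned less than Pou1f1. Neurod4, a basic helix-loop-helix factor, had 69.0, 3.70 and 7.81 FPKM and so had its signal mainly in lactotrope 1. Cited2, a co-regulator that binds CBP and p300, had 17.7, 6.29 and 31.8 FPKM, highest in lactotrope 3, and Tbx19, the factor of corticotropes, had 15.4, 0.513 and 0.00380 FPKM.

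Nuclear receptors and early response genes completed the regulators. The orphan receptors Nr4a1 and Nr4a2, which are themselves early response genes, had 113, 24.9 and 53.4 FPKM and 76.0, 6.77 and 13.7 FPKM respectively, lowest in lactotrope 2. Thrb, a thyroid hormone receptor, had 44.0, 3.25 and 4.26 FPKM, with lactotrope 1 far above the others, and the glucocorticoid receptor Nr3c1 had 10.6, 5.96 and 2.49 FPKM. Of 17 early response genes 14 had at least 1 FPKM in all 3 libraries. Fos had 34.6, 187 and 533 FPKM, Dusp1, a phosphatase of MAP kinases, had 113, 186 and 495 FPKM and Atf3 had 7.89, 32.7 and 137 FPKM, each lowest in lactotrope 1 and highest in lactotrope 3.

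**Figure D3:**
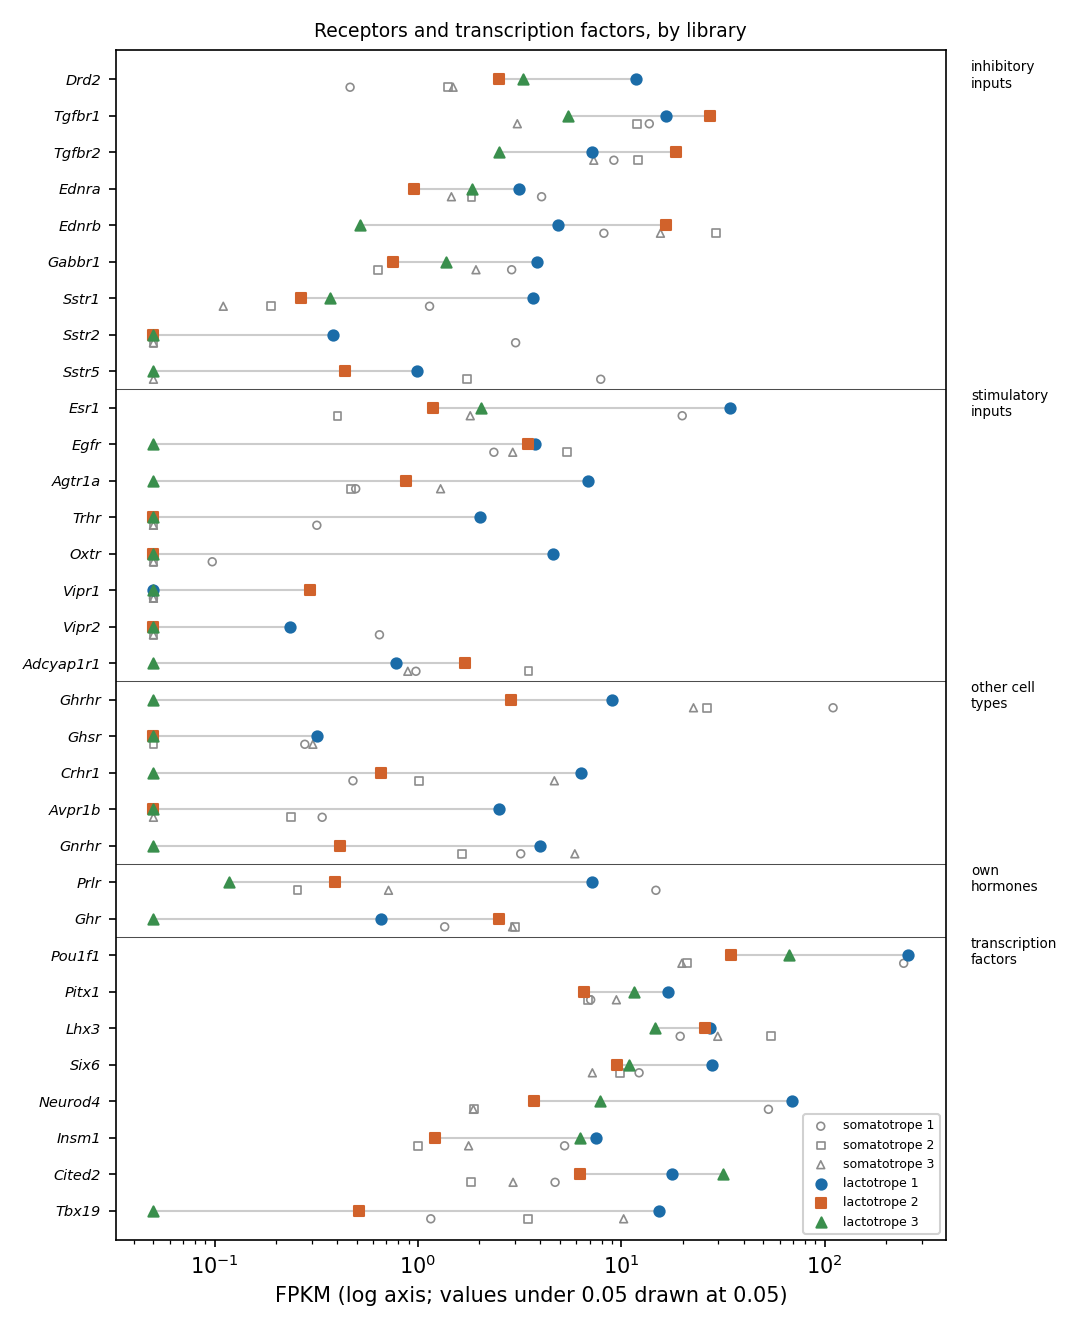
FPKM on a log axis of receptors and transcription factors, grouped by input or role, with filled symbols for the 3 lactotrope libraries, open grey symbols for the 3 somatotrope libraries and a line over the lactotrope range, and values under 0.05 FPKM drawn at 0.05. Drd2 and Cited2 lie wholly to the right of the somatotrope symbols, while Trhr, Oxtr, Ghsr and Avpr1b have a lactotrope symbol above the limit only in lactotrope 1.

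Among steroid-related enzymes, Akr1c14 (chr13:4058837-4089668, plus strand), an aldo-keto reductase that acts on progesterone metabolites, had 97.5, 5.14 and 25.7 FPKM, an 18.97-fold range as deposited, in which lactotrope 2 was lowest. Hsd11b1, which regenerates active glucocorticoid, had 23.7, 99.6 and 16.4 FPKM and was highest in that same library. Of 23 genes of steroid and retinoid metabolism 6 had at least 1 FPKM in all 3 libraries and 12 in at least 2. Of 17 imprinted genes, 10 (58.8%) had at least 1 FPKM in all 3 libraries. Beside Gnas, Nnat and Dlk1, Mest had 253, 37.0 and 154 FPKM and Meg3 had 70.3, 93.4 and 119 FPKM, the latter highest in lactotrope 3. Peg3, a zinc finger gene, had 119, 6.56 and 1.90 FPKM, and Apeg3, a transcript on the opposite strand of the same locus, had 282, 17.1 and 3.83 FPKM. The sources used here do not give whether counting used strand, so those 2 cannot be told apart with certainty.

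Markers of cells other than lactotropes were listed at levels that differed between the libraries. All 18 macrophage and leukocyte markers but Cd209a were at least 1 FPKM in all 3 libraries, and their summed level was 1315, 20612 and 7388 FPKM, against 452 to 10331 FPKM in the somatotrope libraries. The complement gene C1qb had 80.8, 973 and 419 FPKM, the MHC class II gene H2-Ab1 had 147, 3546 and 1273 FPKM and the microglial gene Fcrls had 9.54, 44.1 and 29.8 FPKM, each lowest in lactotrope 1 and highest in lactotrope 2. Erythroid markers summed to 5.33, 325 and 3529 FPKM, nearly all of it globin transcripts such as Hba-a1, at 2.03, 152 and 1571 FPKM. Hba-a1 and Hba-a2 are near-identical copies, as are Hbb-b1 and Hbb-b2, so how the reads were shared within a pair is uncertain, and Slc4a1, a membrane gene of red cells, was listed at 0 in all 3. Stem and folliculostellate markers, 12 in number, summed to 186, 820 and 166 FPKM and were led by Mia1 at 64.9, 453 and 123 FPKM. Endothelial markers summed to between 0.0513 and 5.56 FPKM, and none of the 9 had at least 1 FPKM in all 3 libraries. Somatotrope markers, which include Gh, summed to 4142, 6906 and 7710 FPKM. The part of these cells in the levels of any other gene was not tested.

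**Figure D4:**
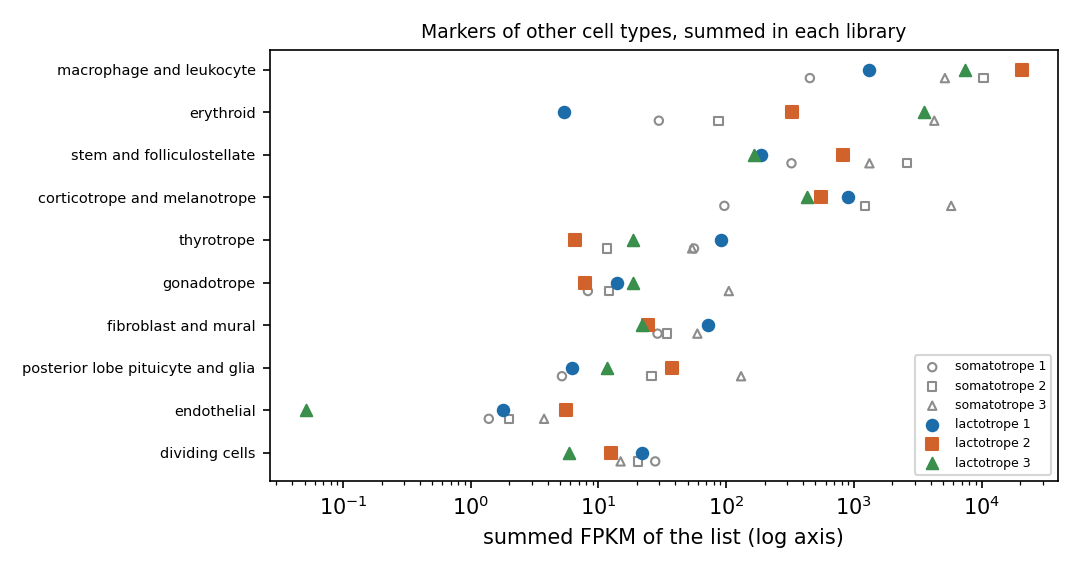
Summed FPKM on a log axis of 10 marker lists of other cell types in each library, the somatotrope list not among them, with filled symbols for the 3 lactotrope libraries and open grey symbols for the 3 somatotrope libraries. Of the 10 lists plotted, macrophage and leukocyte markers are the highest in every lactotrope library, from 1315 FPKM in lactotrope 1 to 20612 FPKM in lactotrope 2, and erythroid markers run from 5.33 FPKM in lactotrope 1 to 3529 FPKM in lactotrope 3.

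Which lactotrope library held the highest values depended on the scale. Over the 3326 genes averaging 10 FPKM or more in lactotropes, the SD of log2(FPKM + 1) had a median of 0.85, against 0.69 over the 3692 such genes in somatotropes, and 0.43 without lactotrope 1. As deposited, the highest value was that of lactotrope 1 for 2603 of these genes (78.3%), of lactotrope 2 for 500 (15.03%) and of lactotrope 3 for 223 (6.70%). After median-ratio scaling, over 3295 genes averaging 10 scaled FPKM or more, the same counts were 788 (23.9%), 935 (28.4%) and 1572 (47.7%), so the library with most of the highest values turned from lactotrope 1 to lactotrope 3. The largest SDs among genes averaging 20 FPKM or more belonged to the globins, to short noncoding rows such as Mir5117 and Snord65, and to Apeg3, Peg3, Ccl4 and Hif1a. Ccl4, a chemokine of macrophages, had 2.92, 59.8 and 153 FPKM and Hif1a, the hypoxia-inducible factor, had 54.3, 11.4 and 0.314 FPKM, in opposite orders of the libraries.

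A gene was called steady when its log2(FPKM + 1) spanned at most 0.5 over the 3 lactotrope libraries, and 180 of the 3326 genes (5.41%) were, against 422 of 3692 (11.4%) in somatotropes. Both cell types shared 48 of them, which is 26.7% of the lactotrope and 11.4% of the somatotrope list. Idh2, a mitochondrial isocitrate dehydrogenase, spanned least at 27.2, 27.1 and 27.0 FPKM. Herpud1 and Fth1, given above, followed closely, as did Asah1, the lysosomal acid ceramidase, at 45.8, 46.3 and 47.6 FPKM and Polr2e, a subunit shared by the RNA polymerases, at 27.3, 28.9 and 27.0 FPKM. The proteasome had 3 genes among the first 20, with Psmc4 at 42.1, 41.3 and 37.8 FPKM, Psmc5 at 33.8, 30.2 and 33.5 FPKM and Psmb3 at 46.3, 41.3 and 43.9 FPKM. By list, 6 of 60 respiratory chain genes, 3 of 21 chaperone genes 2 of 13 exocytosis genes, 2 of 12 common reference genes and 2 of 11 G protein and cyclic AMP genes were steady, the last being Gnas and Gnb2, and 0 of 55 ribosomal protein genes, 0 of 12 transcription factor genes and 0 of 11 granule genes were. Among the reference genes that were not steady, Eef1a1 and Actb had 1387, 70.0 and 137 FPKM and 64.5, 148 and 185 FPKM respectively.

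Which genes were steady turned on the scaling between libraries. On the median-ratio scale, 413 of 3295 genes (12.5%) were steady and 0 of the 180 were among them. The factors of lactotropes 1 and 3 (1.69 and 0.601) lie so far apart that no gene could be steady on both scales. This 0 was therefore fixed by the scaling and says nothing about single genes. After that scaling the 180 spanned at least 0.89 and 1.30 at the median, beside a median of 1.16 over all genes averaging 10 scaled FPKM or more. Genes named on the scaled values were chosen after these data were seen. Tmem59, a Golgi membrane protein, then spanned least, at 186, 189 and 187 scaled FPKM from 316, 151 and 112 FPKM as deposited. Pomc (span 0.49), Stat3 (0.15), Gnb1 (0.45), Hsp90b1 (0.49) and Arf1 (0.48) were steady on the scaled values, and so could not be on the deposited ones. Ribosomal protein genes had 0 steady members of 53 on the scaled values as well, and neither Prl nor Gh was steady under either.

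**Figure D5:**
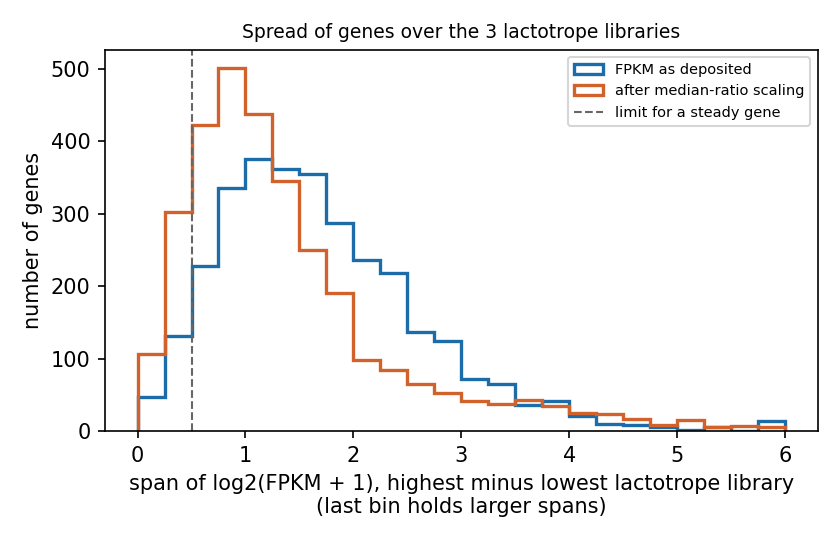
Number of genes by the span of log2(FPKM + 1) between the highest and the lowest lactotrope library, among the 3126 genes averaging 10 FPKM or more both as deposited and after scaling, for the values as deposited (blue) and after median-ratio scaling (orange), with a dashed line at the limit of 0.5 for a steady gene. The scaled distribution lies further left, and over all genes averaging 10 or more on each scale the median span was 1.16 scaled and 1.62 as deposited.

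Set against somatotropes, the 4 marker genes Prl, Drd2, Angpt1 and Akr1c14 were higher on average in lactotropes, but none passed the test over all genes. Of the wider list of 12 lactotrope markers, 10 were tested and 8 averaged higher in lactotropes, beside 4098 of 11642 genes. Pappa2, which is also on the somatotrope list, and Vip averaged lower, with log2 differences of -1.17 and -0.31. In limma with Benjamini-Hochberg adjustment, 0 of 11642 genes (0%) passed at an adjusted p of 0.05, 112 had an unadjusted p under 0.05, and 53 of these were higher in lactotropes. All 3 lactotrope libraries lay above all 3 somatotrope libraries for 134 genes (1.15%) and below for 292 (2.51%). A block for the replicate number gave 0 called genes and 1271 of 11642 under an unadjusted p of 0.05, 436 of them higher in lactotropes. Where no gene differs and the model holds, a share of 0.05 of the genes tested would lie under that limit. The 112 without the block are under that share and the 1271 with it are over it, and the cause was not tested. Array weights gave 9 called genes (0.0773%), of which 7 were higher in lactotropes (0.0601%). The 7 were the secreted factor Angptl7, C3ar1, Fcrls, P2ry12 and Siglech, which are genes of macrophages and microglia, the adhesion molecule Vcam1 and the small nucleolar RNA Snord69, and the other 2 were Ghrhr and the leukocyte lectin Cd209a. Of the 18 macrophage and leukocyte markers, 17 averaged higher in lactotropes, beside 4098 of the 11642 genes tested. The median log2 difference over the 18 was 1.52, beside -0.18 over all genes tested. All 3 lactotrope libraries lay above all 3 somatotrope libraries for only 2 of the 18, and below for 1. The part of these markers in the differences of other genes was not tested. Prl and Drd2 lay above every somatotrope library. Prl had 10464, 8709 and 24481 FPKM in somatotropes 1 to 3, the highest of which was close to the 25171 FPKM of lactotrope 2, and Drd2 had 0.464, 1.40 and 1.49 FPKM in somatotropes 1 to 3. Angpt1 and Akr1c14 overlapped, with 5.96, 2.64 and 2.06 FPKM and 28.2, 1.37 and 11.7 FPKM in somatotropes respectively. Each was nonetheless higher in every lactotrope library than in the somatotrope library of the same number. The log2 difference, lactotrope minus somatotrope, was 2.79 for Prl (SE 1.70, limma adjusted p = 1.00), 1.49 for Drd2 (SE 0.75, limma adjusted p = 1.00), 1.40 for Akr1c14 (SE 1.02, limma adjusted p = 1.00) and 1.08 for Angpt1 (SE 0.81, limma adjusted p = 1.00). The block for the replicate number gave SEs of 0.89 for Prl, 0.54 for Drd2, 0.30 for Akr1c14 and 0.41 for Angpt1. Their limma adjusted p with that block was 0.35, 0.39, 0.23 and 0.42 in that order. With 1 library left out these differences ran from 2.23 to 3.71 for Prl, from 0.91 to 1.85 for Drd2, from 0.39 to 2.42 for Akr1c14 and from 0.24 to 1.61 for Angpt1. The lowest was without lactotrope 1 for Prl, Drd2 and Angpt1 and without somatotrope 2 for Akr1c14, whose difference without lactotrope 1 was 0.42. With array weights they were 1.29 for Prl, 0.69 for Drd2, 0.52 for Akr1c14 and 0.76 for Angpt1. Gh lay below every somatotrope library, with a log2 difference of -2.81 (SE 1.36, limma adjusted p = 1.00), and a two-sided exact permutation test gave p = 0.1 for Prl and for Gh alone, the smallest that 3 libraries against 3 allow. With labels exchanged only within same-numbered pairs, the exact permutation p was 0.25 for both, the smallest that 3 pairs allow.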

How the data were processed

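RNA of 3 lactotrope and 3 somatotrope samples was amplified (NuGen Ovation V2) and sequenced, per the labels' protocols. The authors deposited their values as FPKM, in 1 table of 30399 rows for transcripts, and the submitters' processing notes name bcl2fastq 2.17.1.14, TopHat, edgeR and mm9. The method of counting fragments and its use of strand are not given in the sources used here. Rows without a symbol (889) were left out, and a gene with several rows was represented by that of highest average over all 6 libraries. Row coordinates are printed as deposited. FPKM are not counts, so no count model was run.

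Shares, ranks and spans were computed with pandas 2.3.3 in Python 3.11.15. Cell types were compared on log2(FPKM + 1) with limma 3.58.1 in R 4.3.3 (intensity trend, Benjamini-Hochberg adjustment at 0.05) over the 11642 genes averaging 1 FPKM or more. This code was tested on simulated data with independent noise in each library. No effect shared by same-numbered libraries was simulated, so that test does not cover one. On this scale, differences of low genes are understated. Columns were matched to samples by the sample description. Same-numbered libraries deviated together from their group means (correlations over genes of 0.763, 0.613 and 0.341), but the labels state no pairing. Deviations of differently numbered libraries were not compared. For number 3 the levels go less with a pair. Lactotrope 3 correlated at 0.797 with lactotrope 2 and at 0.782 with somatotrope 3. The animals behind a replicate are not stated, so a p-value reflects only how far these samples differ.

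The members and the 36 gene lists were chosen with earlier results of these data known. Named genes are the 4 lactotrope markers and Gh, the 25 with the best worst rank in lactotropes, the most abundant members of each list and members with a known role in lactotropes, the 20 of smallest span, the 15 of largest SD, and the most abundant markers of other cell types. Alternatives were other pseudocounts, filters, scalings, row choices, array weights, the replicate block and each library left out. The permutation within pairs and the comparison of highest libraries after scaling were added after these data were seen. RefSeq promoter windows were matched by symbol, and Gh and Angpt1 were not matched. A few genes of the lists are not reported here by name.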

Additional observations from a re-analysis of the deposited data

How the results depend on the processing

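The table gives no read totals, so the precision of low levels is uncertain in lactotrope 2 and unknown in lactotrope 3. With 3 libraries a group no permutation p under 0.1 is possible, or under 0.25 within same-numbered pairs. The differences of Prl, Gh, Drd2, Akr1c14 and Angpt1 between the cell types kept their signs under all alternatives run, with no value for Drd2 at a mean of at least 5 FPKM, which it does not reach, but array weights lowered that of Prl from 2.79 to 1.29, of Drd2 from 1.49 to 0.69 and of Akr1c14 from 1.40 to 0.52. The count of genes differing between the cell types was 0 with the replicate number as a block, so that block changed no call, and 0 under other pseudocounts, filters and scalings. Array weights gave 9, and leaving out 1 library gave 0 to 3, the 3 being Aldoc, Cd209a and Crhbp without somatotrope 1. The count of genes among the 100 highest of every lactotrope library ran from 37 to 64 with 1 library left out. Steady genes numbered 413 after median-ratio scaling, 552 after quantile normalization (5 of them among the 180), 307 when Prl and Gh were left out of the total (38 among the 180), 52 at a mean of at least 30 FPKM and 638 to 991 with 1 library left out, where fewer libraries are spanned. The median SD was 0.56 after quantile normalization and 0.43 to 0.90 with 1 library left out.

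Of 288 list levels (median over members of the mean log2 level) under alternatives, 26 moved by over 1 SD. With a pseudocount of 0.1 the levels were -2.32 for local peptides, -0.25 for growth factors, 2.68 for secreted carriers, 0.28 for inhibitory and -1.86 for stimulatory receptors, -0.75 for receptors of other pituitary cells, 0.22 for nuclear receptors, -1.09 for potassium and HCN channels, -0.29 for calcium and sodium channels and -0.42 for steroid and retinoid enzymes. For markers they were -0.18 for corticotropes, -0.75 for gonadotropes, -1.32 for thyrotropes, -2.73 for endothelium, -1.98 for fibroblasts, -2.45 for glia and -0.15 for dividing cells. A smaller pseudocount lowers log values near 0 by construction. After quantile normalization the level was 0.12 for local peptides, 1.34 for growth factors and 0.54 for fibroblast markers. With 1 lactotrope library left out it ran from 0.056 to 0.28 for local peptides, from 1.01 to 1.44 for growth factors, from 2.26 to 2.88 for secreted carriers and from 0.090 to 0.67 for stimulatory receptors. The cause of these shifts was not tested.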

Other observations

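Energy supply and protein synthesis were broadly represented in the lactotrope libraries. Of 62 genes of the respiratory chain and ATP synthase, 61 had at least 1 FPKM in all 3, with a median over genes of 46.7 FPKM. Ndufa1, a subunit of complex I, had 227, 67.3 and 159 FPKM and Atp5b, of the ATP synthase, had 183, 102 and 93.6 FPKM. Of 77 cytosolic ribosomal protein genes, 75 had at least 1 FPKM in all 3, at a lower median of 13.0 FPKM. Rpl41 led them at 804, 84.7 and 263 FPKM, with lactotrope 2 far lowest. Many ribosomal protein genes have processed copies in the genome, so how their reads were shared out is uncertain, and the same holds for Gapdh, listed at only 4.70, 0.820 and 0.562 FPKM.

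Of 8 markers of dividing cells 2 (25%) had at least 1 FPKM in all 3 libraries, beside 31.4% of all genes, and their summed level was 21.8, 12.5 and 5.83 FPKM. Mki67, a marker of cells in cycle, had 1.22, 0.209 and 0.147 FPKM, and Pcna, a replication clamp, had the highest median at 6.44, 6.20 and 1.08 FPKM, lowest in lactotrope 3. Extracellular modulators beyond Cst3 and Apoe included Clu, the chaperone clusterin, at 118, 241 and 82.9 FPKM and Timp2, an inhibitor of matrix proteases, at 33.5, 47.6 and 24.6 FPKM, both highest in lactotrope 2.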
